A study of Mus musculus with 5 samples.

Results

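Tnfrsf4, Tnfrsf18, Tnfrsf9, Tnfrsf1b and Tnfrsf25 are 5 genes of the tumor necrosis factor (TNF) receptor superfamily. They were chosen as the receptors of this family that costimulate regulatory T (Treg) cells, and are 5 of the 21938 protein-coding genes annotated in GENCODE M21. Their H3K27ac peaks were taken as the deposited peaks that overlap the gene span extended by 20 kb on each side, with peaks of the neighbours Tnfrsf4 and Tnfrsf18 given to the nearer transcription start site (TSS). This gave 70 of 124158 peaks. The mark measured was H3K27ac, a histone H3 acetylation typical of promoters and enhancers in use. It was mapped by CUT&Tag, in which an antibody brings a transposase to the mark so that DNA beside it can be sequenced. All mice were C57BL/6 and 2 weeks of age, and Treg cells came from the large intestine at steady state. Ctrl mice were Foxp3Cre-YFP Setd2 f/+ and KO mice were Foxp3Cre-YFP Setd2 f/f, so both groups carried the Cre, which the Treg cell transcription factor gene Foxp3 drives, and Ctrl mice kept 1 normal allele of Setd2, the gene of a histone H3 lysine 36 methyltransferase. Each group had 2 libraries of 60000 cells, pooled from 3 to 5 mice with females and males mixed.

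The products of these genes are cell-surface receptors that bind trimeric ligands and recruit TRAF adaptor proteins, which switch on NF-kB signalling. OX40 (Tnfrsf4), GITR (Tnfrsf18) and 4-1BB (Tnfrsf9) are induced or raised by T cell activation and are abundant on Treg cells. TNFR2 (Tnfrsf1b) binds TNF and supports Treg cell expansion, and DR3 (Tnfrsf25), which has a death domain, binds the cytokine TL1A.

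Library totals ran from 2395002 to 4712473 counts, with the Ctrl and KO ranges overlapping. The 4 Treg markers checked (Foxp3, Il2ra, Ctla4, Ikzf2) all had peaks, with a summed level of 2327 to 2445 CPM (counts per 1000000 counts in tested peaks) in Ctrl and 2749 to 3194 in KO. Ikzf2 alone gave 1196 to 1245 CPM in Ctrl and 1310 to 1563 in KO, and Foxp3 gave 122 to 145 and 146 to 228. The 3 T cell markers (Cd3e, Cd3g, Cd4) summed to 278 to 418 CPM in Ctrl and 330 to 403 in KO, so the groups overlapped there. The summed level of 4 epithelial markers was 57.7 to 57.9 CPM in Ctrl and 54.4 to 55.3 in KO. For 3 of 4 B cell markers with peaks it was 57.5 to 84.8 and 69.3 to 89.4, and for 4 of 5 myeloid markers it was 143 to 154 and 127 to 152. The cells had been sorted as CD3+ CD4+ YFP+. For 3 of 4 markers of CD8 T and NK cells the sum was 173 to 297 CPM in Ctrl and 193 to 330 in KO, nearly all of it at Klrb1c, and in both groups it was higher in library 1. Mast cell markers, 2 of 3 with peaks, summed to 99.99 to 119 CPM in Ctrl and 107 to 129 in KO. Of the 3 stromal markers, Pecam1 alone gave 566 to 836 CPM in Ctrl and 697 to 1057 in KO, while Col1a1 had at most 5.65 CPM in any library and Pdgfra at most 4.07. The part of other cells in the values below was not tested. Fewer cells with a mark and less of the mark per cell cannot be told apart in these pooled samples. Peak counts do not resolve the floxed Setd2 exon, so its deletion was not checked here.

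All 5 genes lie on chromosome 4 (mm10). Tnfrsf1b spans chr4:145213463-145246870 on the minus strand. Tnfrsf9 spans chr4:150914562-150946102, Tnfrsf25 chr4:152115934-152120119, Tnfrsf4 chr4:156013843-156016612 and Tnfrsf18 chr4:156026164-156028895, all on the plus strand. Other genes crowd these windows, so only 35 of the 70 peaks had the receptor gene as the nearest coding TSS among the genes whose windows held the peak. Of these 35, Tnfrsf4 had 3, Tnfrsf18 had 4, Tnfrsf9 had 17, Tnfrsf1b had 7 and Tnfrsf25 had 4. They are called the genes' own peaks here, and their summed counts are the value of a locus.

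The promoters of the genes differed in base composition. RefSeq (GRCm38.p6, the assembly of mm10) gave 7 windows of 250 bases before a start site for the 5 genes, all matched by symbol. Deposited peaks covered all 250 bases in 6 of them, and 213 in the window of the first Tnfrsf9 start. The median GC content of all 32851 such windows was 52.4%. The windows of Tnfrsf1b (62.8%) and Tnfrsf25 (61.6% and 66.4%) lay above it, and those of Tnfrsf4 (42.8%) and Tnfrsf9 (43.2% and 49.6%) below it, with Tnfrsf18 at 56.0%. Sequences follow for the pair with the largest differences between the groups and for a window of Tnfrsf9 and of Tnfrsf1b that carry several motifs. Each is written 5′ to 3′ on the strand of its gene, with the letters of any motif found in capitals: Tnfrsf4 at chr4:156013445-156013694 (plus strand), Tnfrsf18 at chr4:156026072-156026321 (plus), Tnfrsf9 before its downstream start at chr4:150927749-150927998 (plus) and Tnfrsf1b at chr4:145246871-145247120 (minus).
Tnfrsf4: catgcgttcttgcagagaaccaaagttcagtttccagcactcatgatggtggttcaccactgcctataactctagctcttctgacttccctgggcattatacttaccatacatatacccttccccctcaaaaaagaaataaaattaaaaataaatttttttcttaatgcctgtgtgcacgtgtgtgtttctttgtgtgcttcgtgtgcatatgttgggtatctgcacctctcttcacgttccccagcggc
Tnfrsf18: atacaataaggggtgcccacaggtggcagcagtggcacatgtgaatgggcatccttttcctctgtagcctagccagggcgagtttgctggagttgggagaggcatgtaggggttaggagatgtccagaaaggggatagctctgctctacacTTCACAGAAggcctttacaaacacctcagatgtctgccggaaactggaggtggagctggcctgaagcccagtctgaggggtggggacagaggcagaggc
Tnfrsf9: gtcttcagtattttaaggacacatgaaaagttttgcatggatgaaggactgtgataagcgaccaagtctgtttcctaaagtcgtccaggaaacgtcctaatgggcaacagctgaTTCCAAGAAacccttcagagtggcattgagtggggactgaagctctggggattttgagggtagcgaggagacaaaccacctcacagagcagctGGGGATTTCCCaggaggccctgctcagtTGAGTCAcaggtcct
Tnfrsf1b: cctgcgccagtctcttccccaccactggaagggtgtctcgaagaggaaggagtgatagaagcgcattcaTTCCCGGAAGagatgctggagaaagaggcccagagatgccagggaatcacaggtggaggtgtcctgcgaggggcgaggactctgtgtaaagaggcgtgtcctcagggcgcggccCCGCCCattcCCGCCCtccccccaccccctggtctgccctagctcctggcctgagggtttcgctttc

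The motifs searched on both strands were those of AP-1 (TGANTCA), forkhead (TGTTTAC), Runx (TGTGGT), ETS (CGGAAG), STAT (TTCNNNGAA) and NF-kB (by its name), with the GC box (GGGCGG) and the TATA box (TATAAA). None was in the Tnfrsf4 window. The Tnfrsf18 window held 1 STAT match. The Tnfrsf9 window held a STAT match, an AP-1 match and 2 overlapping NF-kB matches in 1 run of letters, and the Tnfrsf1b window held 2 GC boxes and a STAT match that overlaps an ETS match. A STAT match was present in 4 of the 7 windows and in 7.02% of all windows, an ETS match in 3 of 7 and 13.6%, an NF-kB match in 2 of 7 and 7.25%, and a GC box in 2 of 7 and 32.7%. AP-1 and Runx matches were in 1 of 7 each, against 6.75% and 14.0% of all windows. No window of the 5 genes held the forkhead or TATA letters, which were in 3.17% and 12.4% of all windows.

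All 5 loci were strongly acetylated in both groups. By mean CPM over the 4 libraries they ranked 49 (Tnfrsf1b), 262 (Tnfrsf18), 541 (Tnfrsf4), 637 (Tnfrsf9) and 1037 (Tnfrsf25) among 15647 genes with a peak. Locus sums grow with the length of the peaks, so levels were compared per kb of the strongest peak that covers a TSS. On that scale Tnfrsf1b stood at 35.1 CPM per kb (31.9, 32.5, 35.4 and 40.4 in Ctrl 1, Ctrl 2, KO 1 and KO 2). Tnfrsf25 stood at 32.6 (25.9, 35.1, 33.0 and 36.5). Tnfrsf4 stood at 28.3 (22.9, 24.0, 30.01 and 36.2). In this order neighbouring genes were not separated by their libraries, here or in the values that follow. Tnfrsf18 stood at 25.8 (18.4, 25.9, 20.2 and 38.8) and Tnfrsf9 at 25.1 (26.9, 19.0, 30.4 and 24.0). These 5 peaks lay between the 96.7th and the 99.7th percentile of all promoter peaks per kb. At Tnfrsf18 the upstream and downstream peaks, which do not cover its TSS, had higher means, 33.2 and 43.0 CPM per kb.

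**Figure D1:**
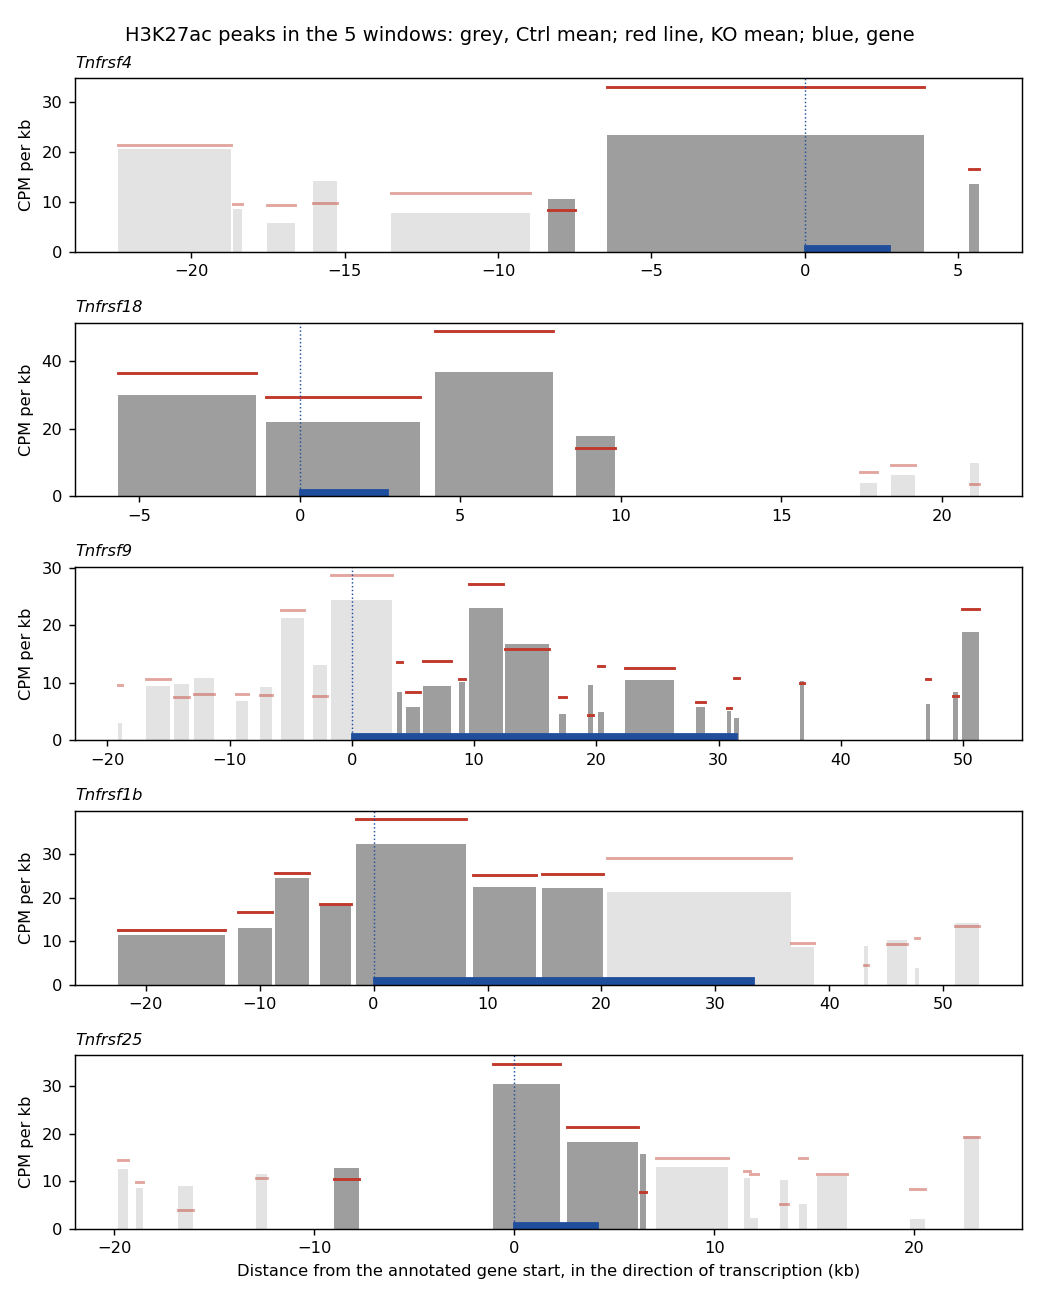
H3K27ac peaks in the windows of the 5 receptor genes. The horizontal axis gives distance from the annotated gene start in kb, in the direction of transcription, and the vertical axis CPM per kb of peak. Grey bars are the Ctrl mean of 2 libraries and red lines the KO mean of 2 libraries, paler for peaks that are not the gene's own. Blue bars are the genes. Tnfrsf4 sits inside 1 peak of 10353 bp, while Tnfrsf9 carries 17 own peaks that are mostly low and narrow.

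The acetylated region took a different form at each gene. At Tnfrsf4, 95.6% of the locus signal lay in 1 peak of 10353 bp (chr4:156007390-156017742), which covers the promoter and the whole gene and ranked 186 in width among all 124158 peaks. At Tnfrsf1b the TSS peak of 9588 bp (chr4:145238799-145248386) ranked 232 in width and held 38.4% of the locus signal, and 2 further peaks of 5408 and 5497 bp lay in the gene body. Upstream of that gene a peak of 9399 bp (chr4:145259878-145269276), rank 245 in width, held 12.8%. That peak overlaps the span of another coding gene, and which gene its signal belongs to was not tested. The median width of all peaks was 477 bp. At Tnfrsf18 the signal was shared by 3 peaks, 1 upstream (chr4:156020500-156024780), 1 over the gene (chr4:156025111-156029890, 27.8% of the signal) and 1 downstream (chr4:156030360-156034046). At Tnfrsf25 the TSS peak (chr4:152114848-152118216) held 55.5%. Tnfrsf9 was the most spread: its strongest own peaks, chr4:150924114-150926952 with 25.6% and chr4:150927125-150930710 with 21.02%, cover annotated starts inside the gene and not its first RefSeq start at position 150920155, which falls between 2 peaks. The stronger peak chr4:150912860-150917886 covers the outermost annotated start of Tnfrsf9 but lies nearer to the start of Park7, which is read in the opposite direction, and was counted for Park7.

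KO was compared with Ctrl to ask whether losing the second Setd2 allele in Treg cells went with a different level of the mark at these receptor genes. At each of the 5 loci the lower KO library lay above the higher Ctrl library. The fold difference was 1.11 to 1.38, and no locus passed the test after adjustment (adjusted p = 0.999988 at all 5 in edgeR). The test was the quasi-likelihood test of edgeR across 13667 loci that had 10 or more counts in 2 or more libraries, with Benjamini-Hochberg adjustment. Across all these loci 0% were called at an adjusted p under 0.05, 3.27% had an unadjusted p under that value in either direction and 0.549% had one with KO higher. DESeq2 called 0 loci as well, with 48 higher and 272 lower by its unadjusted p. The groups were separated in this way at 12.9% of all loci. Among loci in the highest decile by CPM, which holds all 5 receptors, the share was 25.8%.

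Tnfrsf4 had the largest difference of the 5. Its locus stood at 252 CPM in Ctrl 1 and 262 in Ctrl 2, and at 324 in KO 1 and 388 in KO 2, from 558 to 1619 counts. The Ctrl libraries lay close together, and the lower KO library was above both. The log2 fold change was 0.47 ± 0.21 (SE, n = 2 per group), a 1.38-fold difference with a 95% interval of 1.01-fold to 1.89-fold, and edgeR's unadjusted p was 0.0432. Nearly all of it came from the wide peak over the gene, which gave 238 and 249 CPM in Ctrl against 311 and 375 in KO. Its log2 fold change was 0.50 ± 0.25, with an unadjusted p of 0.0428 and an adjusted p of 0.998 in edgeR. This was the one peak of the 58 tested in the 5 windows with an unadjusted p under 0.05. Over all 74550 tested peaks 4.24% had such a p, and 1.45% had it with KO higher, while 0.00134% were called after adjustment. With library totals in place of TMM factors as the scale, peaks with KO higher made up 23.4% of those with such a p, against 34.1% here.

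Tnfrsf18, the next of the 5 genes downstream of Tnfrsf4, stood at 352 and 432 CPM in Ctrl and at 463 and 528 in KO. The groups did not overlap, but the higher Ctrl library was nearer to the lower KO library than to the other Ctrl library on this scale. The log2 fold change was 0.34 ± 0.20 (1.26-fold, interval 0.931 to 1.72). The peaks on either side of the gene each kept the groups apart, the upstream one with 113 and 143 CPM in Ctrl and 163 and 149 in KO, and the downstream one with 128 and 145 in Ctrl and 183 and 179 in KO. The peak over the gene did not: it stood at 87.8 and 124 CPM in Ctrl and at 96.5 and 186 in KO. Its log2 fold change of 0.42 ± 0.27 rested on KO 2 and was -0.17 without that library. The long noncoding gene Gm16008 runs antisense to Tnfrsf18 and shares this peak, and signal of the pair cannot be told apart.

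Tnfrsf9 stood at 268 and 243 CPM in Ctrl and at 319 and 284 in KO. The 2 groups were narrowly separate, with a log2 fold change of 0.24 ± 0.21 (1.18-fold, interval 0.863 to 1.62). The peak at chr4:150927125-150930710, which holds the promoter printed above, showed 59.3 and 61.0 CPM in Ctrl and 59.6 and 54.1 in KO, a log2 fold change of -0.08 ± 0.30. The neighbouring peak chr4:150924114-150926952 showed 76.5 and 53.9 in Ctrl and 86.4 and 68.0 in KO (0.25 ± 0.29). In both peaks the groups overlapped. The peak between Park7 and Tnfrsf9, counted for Park7, showed 133 and 112 CPM in Ctrl and 173 and 116 in KO. When every peak of the window was counted for Tnfrsf9, the groups overlapped at the locus too, with 537 and 454 CPM in Ctrl and 592 and 524 in KO. Camta1 runs antisense into this window, and the signal of the pair cannot be told apart there.

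Tnfrsf1b, the locus with the highest summed CPM of the 5, stood at 884 and 753 CPM in Ctrl and at 942 and 920 in KO. The spread between the Ctrl libraries was larger than the gap between Ctrl 1 and the KO libraries, and the log2 fold change was 0.19 ± 0.17 (1.14-fold, interval 0.872 to 1.48). The TSS peak had 306 and 311 CPM in Ctrl and 340 and 388 in KO (0.24 ± 0.24). A further peak of 16097 bp, rank 50 in width of all peaks, covers the 3′ part of the gene (chr4:145210274-145226370), but its centre lies nearer to the start of Vps13d, so it is outside the locus sum. It had 377 and 306 CPM in Ctrl and 472 and 465 in KO, with a log2 fold change of 0.46 ± 0.24 and an unadjusted p in edgeR of 0.0541. With all peaks of the window counted, Tnfrsf1b stood at 1358 and 1105 CPM in Ctrl and at 1484 and 1455 in KO, a log2 fold change of 0.26 ± 0.19.

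Tnfrsf25 stood at 190 and 187 CPM in Ctrl and at 210 and 206 in KO. Libraries of a group lay very close together, and the difference was the smallest of the 5, with a log2 fold change of 0.15 ± 0.21 (1.11-fold, interval 0.800 to 1.53). The SE exceeds the spread of the 4 values because edgeR takes the spread partly from other loci. The 2 strongest peaks did not keep the groups apart. The TSS peak showed 87.3 and 118 CPM in Ctrl and 111 and 123 in KO (0.18 ± 0.27, and -0.02 without Ctrl 1), and the peak over the 3′ part of the gene showed 77.4 and 51.8 in Ctrl and 85.7 and 65.6 in KO (0.23 ± 0.29).

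**Figure D2:**
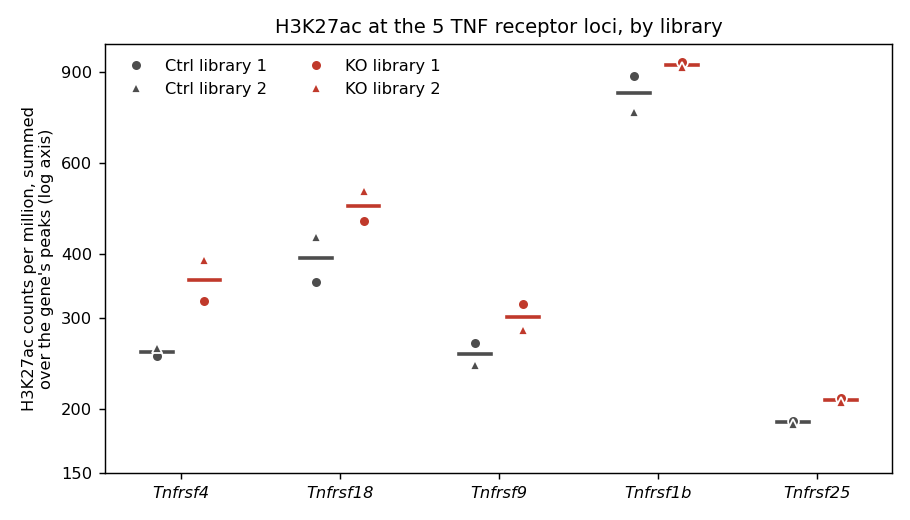
H3K27ac at the 5 receptor loci in each library. The vertical axis is CPM summed over the gene's own peaks (log axis); circles are library 1 and triangles library 2 of a group, and bars are group means of 2 libraries. The KO libraries sit above the Ctrl libraries at all 5 loci, with the widest gap at Tnfrsf4 (252 and 262 against 324 and 388 CPM).

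The own peaks make up the locus sums, so their values are not independent of those above. At 22 of the 31 tested own peaks the groups overlapped. Of the 35 own peaks, 31 had enough counts to be tested and the other 4 were among those of Tnfrsf9 and Tnfrsf25. Of the 31, 24 were higher in KO and 7 lower, with a median log2 fold change of 0.23. The groups were separated with KO higher at 9 of the 31, against 16.9% of all tested peaks, and with KO lower at 0 of the 31, against 16.4%. In the full windows 58 of 70 peaks were tested, 41 of them higher and 17 lower, with a median of 0.18, and the groups were separated with KO higher at 15 and with KO lower at 3. The 27 tested peaks in these windows that lie nearer to another gene had a median of 0.11, with 17 higher. Over all tested peaks the median was -0.01 and 49.2% were higher in KO. The 4423 tested peaks of chromosome 4, where all 5 genes lie, had a median of -0.04.

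**Figure D3:**
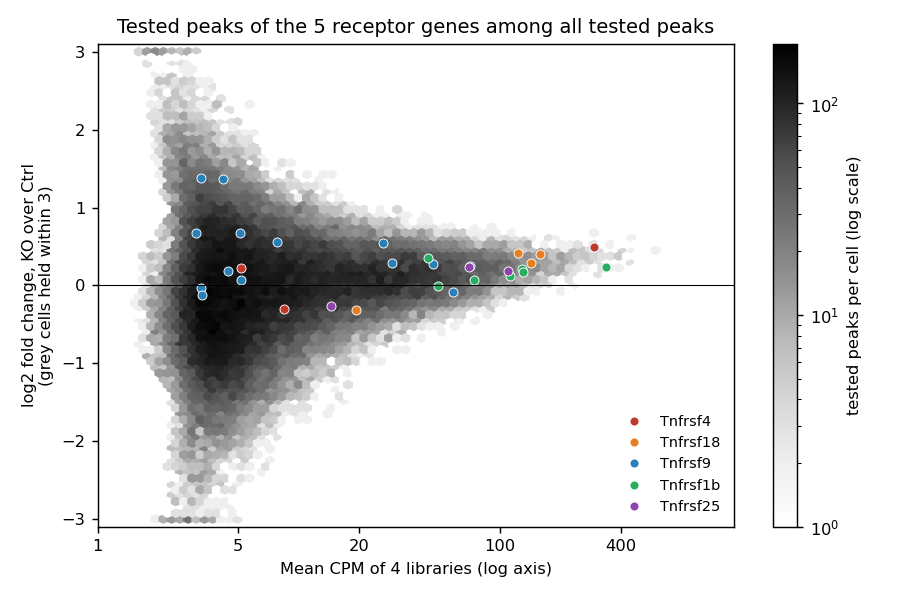
Log2 fold change of KO over Ctrl (vertical axis) against mean CPM of 4 libraries (horizontal log axis) for all 74550 tested peaks (grey, darker where more peaks lie) and the 31 tested own peaks of the receptor genes (coloured points). The strongest peaks on the right, those of the receptors included, lie mostly above 0, and the low peaks of Tnfrsf9 on the left scatter widely.

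The direction moved with how strongly a site was acetylated, over all genes. Among the 1367 loci in the highest decile by CPM, which holds all 5 receptors, the median log2 fold change was 0.13, 73.8% were higher in KO and the groups were separated with KO higher at 25.8%. In each of the 8 lowest deciles the median lay between -0.07 and -0.03. The fold changes of Tnfrsf4 (91.4th percentile of all loci), Tnfrsf18 (85.1), Tnfrsf9 (77.5), Tnfrsf1b (72.3) and Tnfrsf25 (68.2) are to be read beside this. Among peaks, the 16 own peaks in the highest decile by CPM had a median of 0.23 with 14 higher, against 0.16 and 74.2% for all 7455 peaks of that decile. The groups were separated with KO higher at 4 of these 16 (25.0%) and with KO lower at 0, against 27.2% and 4.43% for all peaks of that decile, so the share with KO higher was near that of peaks of like strength. In the same terms the 15 weaker own peaks had a median of 0.22 with 10 higher, and 5 were separated with KO higher. Over all tested peaks, the strong ones included, 49.2% were higher and 16.9% were separated with KO higher. The shares of weaker peaks alone were not computed. When the scale of each library was fitted as a smooth curve on abundance, which removes such a trend, the fold changes were 0.35 at Tnfrsf4, 0.18 at Tnfrsf18, 0.14 at Tnfrsf9, 0.08 at Tnfrsf25 and -0.04 at Tnfrsf1b. On that scale the groups stayed apart at 2 of the 5 loci, Tnfrsf4 and Tnfrsf18, and 14.5% of all loci were separated with KO higher. With library totals as the scale they stayed apart at 4 of 5, the exception being Tnfrsf1b, against 9.89% of all loci.

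**Figure D4:**
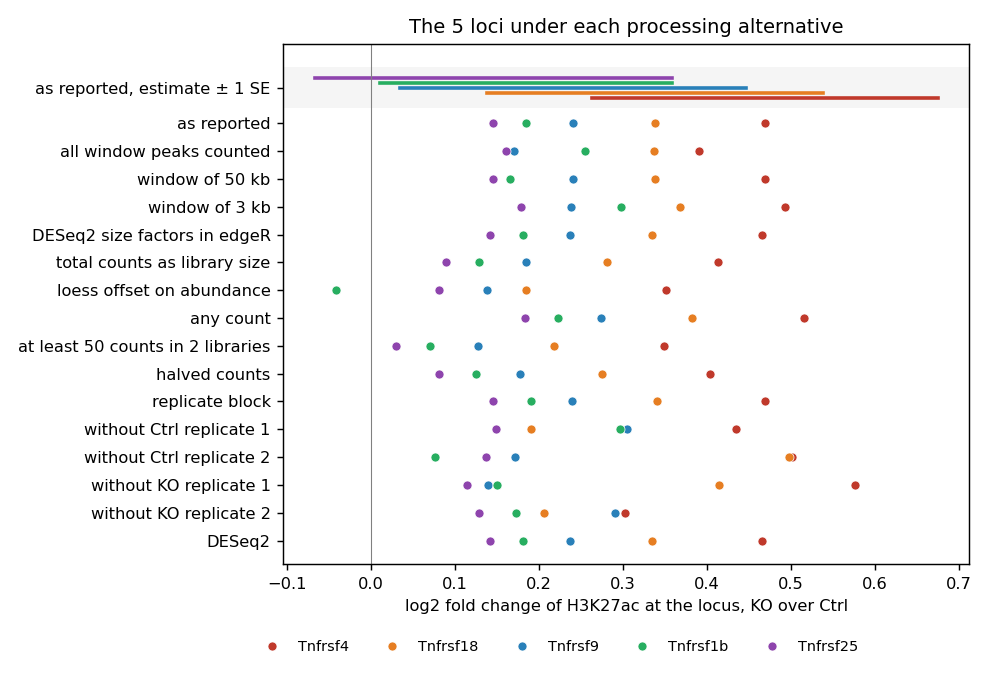
Log2 fold change of KO over Ctrl at the 5 loci (coloured points) as reported and under 15 processing alternatives (rows), with bars of ± 1 SE for the reported values at the top. Tnfrsf4 has the highest value in every row, and the only value below 0 is Tnfrsf1b with the loess offset (-0.04).

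Genes whose library-to-library pattern was most like that of a receptor were found by centring log2 CPM over the 4 libraries and taking the largest difference in any library, over 13666 other loci. For Tnfrsf4 these were Tbx21 and Eif5a, within 0.02 and 0.03, and for Tnfrsf18 Pttg1ip and Abhd8, within 0.01 and 0.02. They were Mfsd4b4 and Nek4 for Tnfrsf9, Mapk14 and Gadd45g for Tnfrsf1b and Pfkp and Gpr108 for Tnfrsf25. With 4 libraries such a likeness is common: 82 loci lay within 0.1 of Tnfrsf4 and 300 within 0.1 of Tnfrsf25.

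The same test was read for the rest of the pathway from lists of other receptors, ligands and signalling proteins. Of 23 other TNF receptor genes, 17 had a peak by this rule and 15 were tested. None was called and none had an unadjusted p under 0.05 in edgeR, 12 were higher and 3 lower, and the median log2 fold change was 0.17. The highest summed CPM was that of Tnfrsf8 (CD30), at 476 and 350 in Ctrl and 469 and 354 in KO. Its log2 fold change was -0.0037 ± 0.23. Cd27, another costimulatory receptor of T cells, had 0.31 ± 0.23, and Tnfrsf14 (HVEM) 0.15 ± 0.22. The smallest unadjusted p values belonged to Tnfrsf10b (0.32 ± 0.22), a TRAIL receptor, and to Tnfrsf23 (-0.69 ± 0.35), a decoy receptor, where the KO libraries lay below the Ctrl libraries. The value of Tnfrsf23 depended on the window and was -0.14 with 50 kb and -0.25 with 3 kb on each side. Without KO 2, Cd27 went to 0.045 and Tnfrsf10b to 0.18, and without Ctrl 1 Cd27 went to 0.12, without Ctrl 2 to 0.54 and without KO 1 to 0.50. The other 6 genes of this list are not analysed here.

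Among 18 ligand genes 16 had a peak and 14 were tested, 10 higher and 4 lower with a median of 0.23, and again 0 had an unadjusted p under 0.05 in edgeR. Fasl, the ligand of Fas, had the highest summed CPM, 289 and 178 in Ctrl and 285 and 202 in KO. Its log2 fold change was 0.06 ± 0.28. Tnfsf10 (TRAIL) had 0.25 ± 0.23 and Ltb, a lymphotoxin subunit, 0.45 ± 0.28. The Ltb value went to 0.15 without Ctrl 1, 0.83 without Ctrl 2 and 0.18 without KO 2. Cd40lg, the CD40 ligand, had 104 and 98.5 CPM in Ctrl and 133 and 141 in KO (0.44 ± 0.23), and Tnfsf8, the ligand of CD30, 96.8 and 86.3 in Ctrl and 80.5 and 76.9 in KO (-0.22 ± 0.25, and -0.14 without Ctrl 1). The highest value of the list, chosen after its values were seen, was 1.51 ± 0.90 at Cd70, the ligand of CD27. It rests on few counts, 9 and 6 in Ctrl and 31 and 21 in KO (4.07 and 1.79 CPM against 11.6 and 5.03).

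The signalling genes were more evenly split. Of 24 genes 23 were tested, 13 higher and 10 lower with a median of 0.04, and 0 had an unadjusted p under 0.05 in edgeR. Tnip1, an inhibitor of NF-kB signalling, had 0.44 ± 0.24, Cflar, an inhibitor of caspase activation, 0.25 ± 0.19, and the adaptor gene Traf1 0.25 ± 0.21. Traf2, the adaptor that several of the 5 receptors bind, stood at 282 and 325 CPM in Ctrl and 354 and 479 in KO (0.46 ± 0.22). Ikbkb, a kinase of the NF-kB pathway, stood at 134 and 129 in Ctrl and 80.9 and 107 in KO (-0.48 ± 0.25). At both genes the groups did not overlap, as was so at 4 of the 23 with KO higher and at 5 with KO lower. Over all 13667 tested loci the groups were separated with KO higher at 1765 and with KO lower at 2382. KO 2 carried much of the values of Tnip1, Traf1, Cflar and Traf2, which went to 0.027, 0.024, 0.089 and 0.19 without it. At Ikbkb it weakened the difference, which went from -0.48 to -0.73 without KO 2. Without Ctrl 1 Tnip1 went to 0.25 and Traf1 to 0.15, and without KO 1 they went to 0.73 and 0.40 and Ikbkb to -0.32.

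Receptors of the Cd28 family, outside the TNF family, had a median log2 fold change of 0.44, beside 0.24 for the 5 TNF receptors. Ctla4, an inhibitory receptor of Treg cells, stood at 632 and 680 CPM in Ctrl and 850 and 949 in KO, a log2 fold change of 0.46 ± 0.18 with an unadjusted p of 0.0246 and an adjusted p of 0.999988 in edgeR. Cd28 had 0.38 ± 0.20 and Icos 0.44 ± 0.22, and the KO libraries lay above the Ctrl libraries at all 3 loci. This was so at 12.9% of all loci and at 25.8% of those in the highest decile by CPM, which holds these 3. Without KO 2, Cd28 went to 0.16 and Icos to 0.26, and Icos went to 0.23 with a window of 50 kb. Of the interleukin-2 receptor genes, Il2ra had 0.25 ± 0.19, Il2rb 0.50 ± 0.30 and Il2rg -0.0029 ± 0.25, and the groups stayed apart at Il2ra alone.

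**Figure D5:**
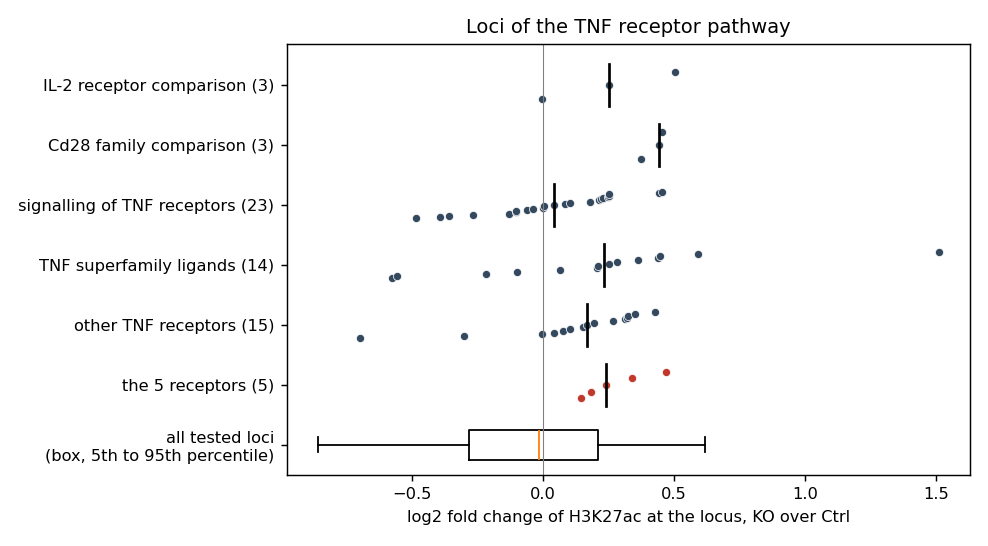
Log2 fold change of H3K27ac at the locus, KO over Ctrl (horizontal axis), for the 5 receptors (red), the genes tested in each pathway list (dark points, number in brackets) and all 13667 tested loci (box with the median and quartiles, whiskers at the 5th and 95th percentiles). Vertical bars are list medians; that of the 5 receptors is 0.24, beside -0.02 for all loci.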

How the data were processed

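H3K27ac CUT&Tag libraries of large intestinal Treg cells (2 Ctrl, 2 KO) were analysed; an IgG library without count values was not used. After trimming, the authors mapped reads to mm10 (Bowtie2), retained those with a unique position and took out duplicates with MarkDuplicates. Peaks came from MACS2 with IgG as the background, were merged over libraries, and raw read counts per merged peak, made with bedtools, were deposited. Versions were not given in the sources used here. Peaks were called on the libraries that were then compared, and whether both mates of a pair were counted is not known.

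Coordinates are 1-based on mm10. Each peak was assigned to the GENCODE M21 basic protein-coding gene with the nearest TSS among genes whose span, extended by 20 kb, it overlaps. Peaks, and loci summed over their peaks, that had 10 or more counts in 2 or more libraries were fitted with edgeR 4.0.16 (glmQLFit, TMM, no covariate) in R 4.3.3, with Benjamini-Hochberg adjustment over all tested features and a threshold of 0.05. SE is the log2 fold change divided by the root of F, and intervals are at the 95% level. edgeR's prior degrees of freedom were infinite for peaks and 9.02 for loci, so the spread was borrowed across features. CPM is the count per 1000000 counts in tested peaks after TMM. Each library is a biological replicate, a pool of several mice, and Ctrl and KO mice were littermates. Which litters went into which pool was not given in the sources used here. DESeq2 1.42.0 and the other alternatives are given at the end. The fitting code was tested on simulated data.

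The 5 genes and the pathway lists were chosen with earlier results of these data known. Named genes are the 5 receptors and, from each list, the 3 loci with the highest mean CPM and the smallest unadjusted p in each direction; all members of the short Cd28 and interleukin-2 receptor lists are given.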

Additional observations from a re-analysis of the deposited data

How the results depend on the processing

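Over 15 alternatives at each of the 5 loci, 74 of 75 values kept their direction. The range was 0.30 to 0.58 at Tnfrsf4, 0.18 to 0.50 at Tnfrsf18, 0.13 to 0.31 at Tnfrsf9, -0.041 (loess offset on abundance) to 0.30 at Tnfrsf1b and 0.03 to 0.18 at Tnfrsf25. The lowest values came with the loess offset at Tnfrsf18 and Tnfrsf1b, without KO 2 at Tnfrsf4, and at Tnfrsf9 and Tnfrsf25 with a minimum of 50 counts, which moved the median of all loci to -0.12. Total counts as the scale moved it to -0.07. Leaving out 1 library gave 0.30 to 0.58 at Tnfrsf4, 0.19 to 0.50 at Tnfrsf18, 0.14 to 0.31 at Tnfrsf9, 0.08 to 0.30 at Tnfrsf1b and 0.11 to 0.15 at Tnfrsf25. The low ends at Tnfrsf4, Tnfrsf18 and Tnfrsf1b came without KO 2, Ctrl 1 and Ctrl 2; Tnfrsf18 was at 0.21 without KO 2, Tnfrsf9 at 0.14 without KO 1 and Tnfrsf1b at 0.30 without Ctrl 1. The 1 peak called higher of all tested was not called (0) with any count, with a minimum of 50, with halved counts or in DESeq2, and leaving out 1 library gave 0 to 1; by its unadjusted p, DESeq2 put 445 peaks with KO higher and 1023 with KO lower under 0.05. The loess offset called 1 peak lower. The cause of these changes was not tested.

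Replicate numbers are shared by the groups. Ctrl and KO mice were littermates, but the sources used here do not say whether a number marks a shared litter; over peaks, deviations of same-numbered libraries correlated at 0.25, from 2 pairs. With the replicate number as a block (replicate block), 152 peaks were called higher and 59 lower, and 425 loci higher and 520 lower. Tnfrsf4 (0.47, adjusted p = 0.000213 in edgeR) and Tnfrsf18 (0.34, adjusted p = 0.00444) were then among the called loci; Tnfrsf9, Tnfrsf1b and Tnfrsf25 were not. Of the other loci named, the block called Ctla4, Cd28, Icos, Il2rb, Ltb, Cd40lg, Cd27, Tnip1, Cflar and Traf2 higher and Ikbkb lower.

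Single peaks and genes changed sign as follows. With the loess offset the TSS peaks of Tnfrsf1b and Tnfrsf25 went to -0.095 and -0.031, Fasl to -0.018 and Il2rg to 0.028. With all window peaks Tnfrsf8 went to 0.11 and Il2rg to 0.046, with any count they went to 0.022 and 0.043, and with a minimum of 50 Fasl went to -0.042. Leaving out 1 library gave -0.17 (without KO 2) to 0.79 at the Tnfrsf18 TSS peak and -0.022 (without Ctrl 1) to 0.43 at the Tnfrsf25 TSS peak. It gave -0.067 to 0.88 at Il2rb and -0.047 to 0.28 at Tnfrsf14, with the low end without KO 2. It gave -0.16 (without KO 2) to 0.13 (without Ctrl 2) at Il2rg, -0.25 (without Ctrl 2) to 0.45 (without Ctrl 1) at Fasl and -0.24 (without KO 1) to 0.23 (without Ctrl 1) at Tnfrsf8. Per kb of the whole locus, levels were 13.8 (Tnfrsf9), 22.7 (Tnfrsf1b) and 23.4 (Tnfrsf25), below those of their TSS peaks. For Tnfrsf4 they were 21.8, 22.6, 28.0 and 33.5 in Ctrl 1, Ctrl 2, KO 1 and KO 2, also below its TSS peak in each library. For Tnfrsf18 they were 25.2, 30.9, 33.1 and 37.8 in the same order, above its TSS peak in all libraries but KO 2.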
